A study of Drosophila melanogaster with 2 samples.

Results

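The small heat shock protein cluster at 67B is a group of neighbouring stress genes on chromosome arm 3L of Drosophila melanogaster. It was taken as the listed genes Hsp22, Hsp23, Hsp26, Hsp27, Hsp67Ba, Hsp67Bb and Hsp67Bc, which are 7 of the 18164 annotated genes on the 6 chromosome arms. Binding of the transcription factor Xrp1, which has a basic leucine zipper (bZIP) and an AT-hook for contact with DNA, was mapped by chromatin immunoprecipitation and sequencing (ChIP-seq), and every peak with its summit in one of these genes or within 2000 bp was collected. The cluster held 4 of the 7534 conservative peaks, which are those the authors retained after comparing the replicates. It held 21 of the 90143 peaks in the ranked list of the same comparison, to which no threshold was applied. The ranked list contains the conservative peaks, and 8.36% of all its peaks were conservative.

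The embryos were whole organisms 8 to 24 hours old, from a strain labelled Xrp1-GFP whose insertion targets Xrp1, and they expressed an Xrp1-eGFP fusion protein. The descriptions name an antibody to GFP for the precipitation, and the antibody label names Xrp1. The study had 1 group of 2 biological replicates with 1 technical replicate each, and control samples were not analysed here, so each value is read against the rest of the same list. The labels name no heat shock or other treatment. Chromatin came from whole embryos, so a weak peak in many cells and a strong peak in few cells cannot be told apart. The files hold peaks and no reads, so depth is unknown, and the replicates' lists, with 71017 and 66235 ranked peaks for replicates 1 and 2, have separate signal scales.

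Small heat shock proteins share an alpha-crystallin domain, form oligomers and hold unfolding proteins without using ATP until other chaperones refold them. In Drosophila the genes of this cluster are induced by heat through heat shock factor (Hsf), which binds inverted repeats of the unit GAA, and several are also switched on during development by ecdysone. GAGA factor binds GA repeats at such promoters and keeps them open.

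Hsp27 and Hsp26 carried the strong Xrp1-eGFP peaks of the cluster, each in the intergenic sequence just upstream of its transcription start site (TSS). Hsp27, whose protein is mainly nuclear in fly cells, lies at 9384063 to 9385694 on the plus strand (dm6). Its peak ran from 9383760 to 9384067, with the summit 158 bp upstream of the TSS and a signal of 1072. Hsp26, a cytosolic family member, lies at 9376418 to 9377427 on the minus strand and has annotated TSSs at 9377427 and 9377375. Its peak ran from 9377451 to 9377670, with the summit 118 bp upstream of the outer TSS and a signal of 381. The sequences of both regions are shown because they hold the summits together with the nearest heat shock units and GA repeats. The first is the plus strand of chr3L:9383715-9383955 in dm6, from 348 to 108 bp upstream of the Hsp27 TSS, with the summit at base 191. The second is the minus strand of chr3L:9377451-9377744, from 317 to 24 bp upstream of the outer Hsp26 TSS, with the summit at base 200. Capitals mark pairs of heat shock units, runs of 3 alternating units with at most 1 mismatch, and GAGAG on either strand.
Hsp27 upstream region: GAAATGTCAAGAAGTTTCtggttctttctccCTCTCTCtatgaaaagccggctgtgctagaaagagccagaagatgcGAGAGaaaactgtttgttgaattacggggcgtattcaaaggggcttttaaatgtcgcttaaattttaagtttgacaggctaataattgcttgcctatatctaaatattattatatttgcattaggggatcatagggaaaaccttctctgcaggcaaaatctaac
Hsp26 upstream region: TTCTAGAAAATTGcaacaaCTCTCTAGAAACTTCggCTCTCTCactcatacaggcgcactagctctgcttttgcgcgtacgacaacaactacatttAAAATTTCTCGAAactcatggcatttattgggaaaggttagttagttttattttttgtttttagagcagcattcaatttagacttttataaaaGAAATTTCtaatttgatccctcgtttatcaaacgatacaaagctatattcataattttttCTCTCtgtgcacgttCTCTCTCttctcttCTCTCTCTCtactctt
The Hsp27 summit falls in the lower-case stretch beyond all the capitals, whereas the Hsp26 summit sits just beside a pair of heat shock units.

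The 7 members lay within 14184 bp, with other genes between and beside them. The ferredoxin gene Fdx1 lies just beyond Hsp67Bc, CG4461 lies between Hsp22 and Hsp26, and the antisense gene asRNA:CR43481 overlaps Hsp67Ba. Together with 2000 bp on each side the region spanned 18184 bp. Conservative summits stood at 220 per Mb in it, against 56.3 per Mb over the 6 arms. Among 133775 windows of the same length, stepped by 1000 bp along the arms, 7.63% held at least as many conservative summits. The median window held 0 and the fullest held 13. The nearest conservative summits outside the region were 4298 bp before the first member, with a signal of 73.6, and 11634 bp after the last, with a signal of 149.

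**Figure D1:**
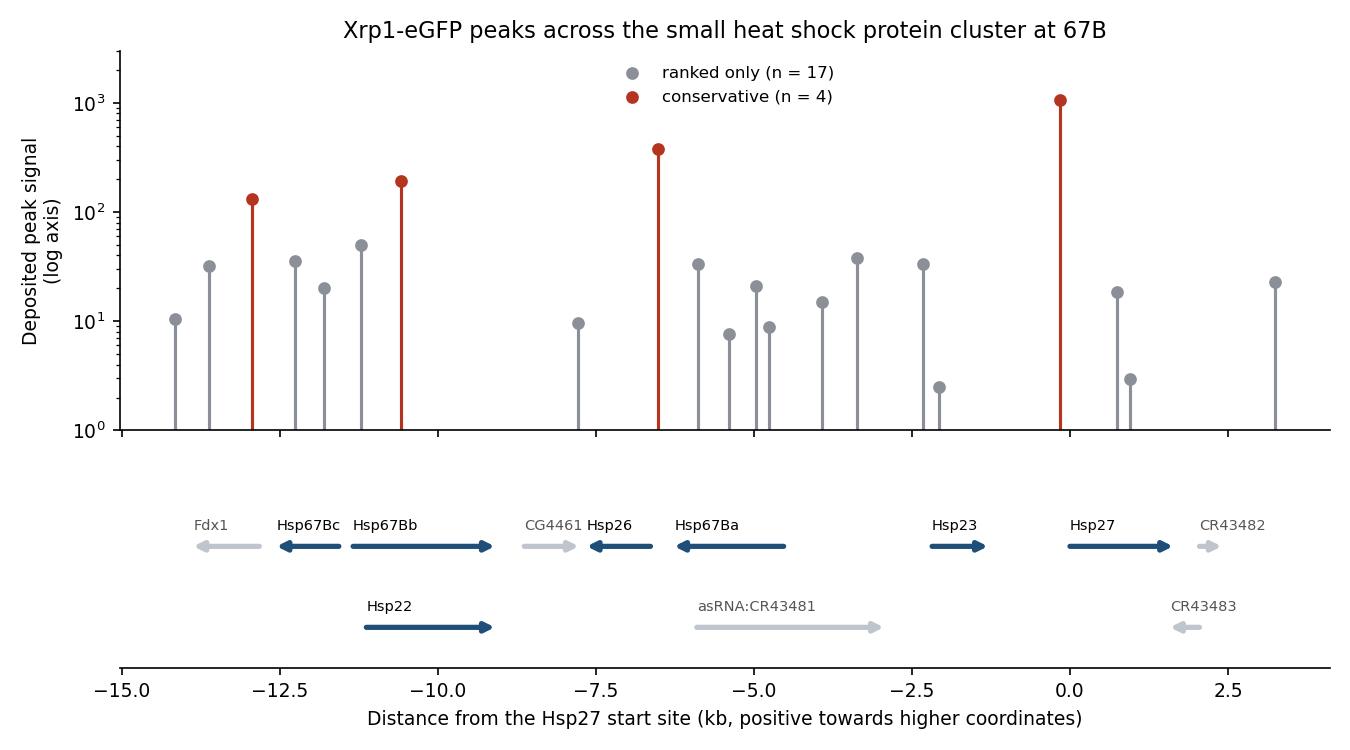
Deposited signal of each peak of the cluster (log axis) against the distance of its summit from the Hsp27 TSS in kb, above the genes of the region drawn as arrows in the direction of transcription, with the 7 members in dark blue. The 4 conservative peaks (red) have signals of 131 to 1072 and the 17 ranked peaks that are not conservative (grey) stay at or below 50.2.

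The map of the peaks along the cluster shows a gap between the 4 conservative peaks and the rest. The weakest conservative peak, next to Fdx1, had a signal of 131, and the strongest of the other 17 had 50.2. The other 17 had global irreproducible discovery rates (IDR) of 0.160 or more, against 0.000815 or less for the 4. The IDR is the authors' estimate that a peak does not hold across replicates. The conservative list was thresholded by the IDR procedure, so this difference follows largely from how the peaks were sorted. By signal the Hsp27 peak ranked 91 in the conservative list, the Hsp26 peak 743, the Hsp22 peak 2097 and the Fdx1 peak 3504. These ranks correspond to percentiles 98.8, 90.1, 72.2 and 53.5, so the Fdx1 peak was close to the middle of the list.

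**Figure D2:**
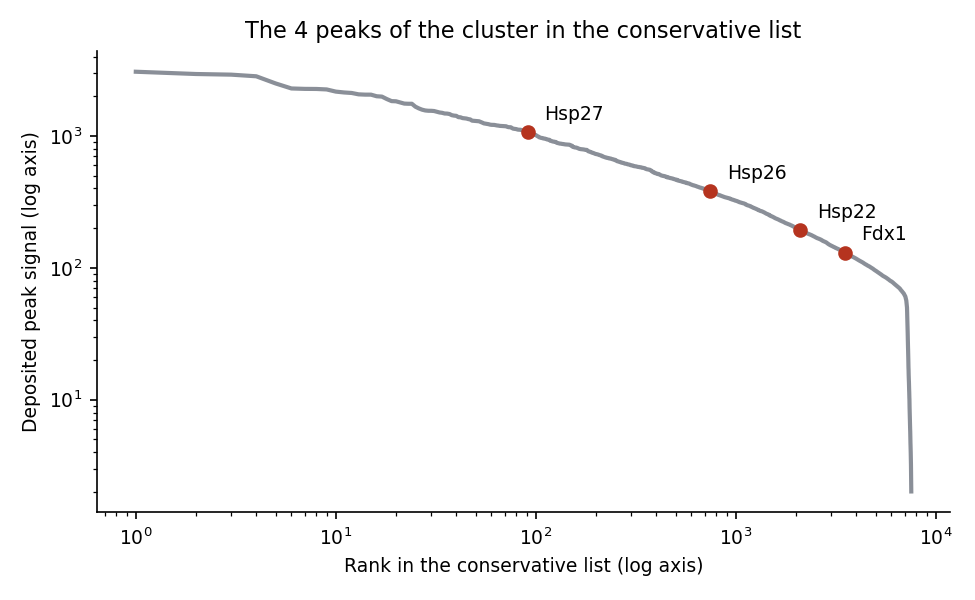
Signal of the conservative peaks against their rank (grey line, both axes log), with the 4 peaks of the cluster in red, each named after its nearest TSS. The Hsp27 peak ranks 91 and the Fdx1 peak 3504.

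Hsp22 encodes the mitochondrial member of the family, and Hsp67Bb, named CG4456 in the annotation used here, encodes a rhodanese-domain protein in place of a small heat shock protein. Their annotated transcripts overlap on the plus strand, from 9372722 for Hsp67Bb and from 9372931 for Hsp22 to 9374964 for both. Their conservative peak ran from 9373293 to 9373656 with a signal of 193. Its summit was 522 bp upstream of the inner Hsp22 TSS at 9373997 and 544 bp downstream of the TSS at 9372931 that both genes share, in sequence annotated as a 5' UTR of Hsp22 and a 3' UTR of Hsp67Bb. It therefore lay just beyond the 500 bp used here as the promoter distance. Another peak, in the ranked list only, stood 82 bp before the shared TSS with a signal of 50.2 and a global IDR of 0.509. That ranked summit was also the strongest within 500 bp of Hsp67Bc, which lies at 9371511 to 9372497 on the minus strand and encodes a cytosolic family member that works with the co-chaperone Starvin.

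The fourth conservative peak was nearest to a gene that is not a member. It ran from 9370939 to 9371302 in an Fdx1 intron, with its summit 63 bp upstream of the inner Fdx1 TSS and 1376 bp from the Hsp67Bc TSS. Fdx1 encodes a mitochondrial ferredoxin, an electron carrier. It was collected because it lies outside, but within 2000 bp of, Hsp67Bc, Hsp67Bb and Hsp22.

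Hsp23 and Hsp67Ba, both encoding proteins with an alpha-crystallin domain, had no conservative peak of their own. At Hsp23 (9381882 to 9382765, plus strand) the strongest ranked summit was 140 bp upstream of the TSS with a signal of 33.4. At Hsp67Ba (9377802 to 9379534, minus strand) the strongest within 500 bp of the TSS was 435 bp downstream of it, in coding sequence, with a signal of 21.1. The nearest conservative summit to the Hsp23 TSS was the Hsp27 peak, 2023 bp away, and the nearest to the Hsp67Ba TSS was the Hsp26 peak, 1989 bp away.

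With 500 bp as the promoter distance, a conservative summit was at a TSS of 2 of the 7 members, Hsp27 and Hsp26. Among all annotated genes the share was 20.0%, and among protein-coding genes it was 23.2%. The members' count is therefore close to the background share, and Hsp27 and Hsp26 differed from the other 5 in the height of their peaks. Counting summits in a gene or within 2000 bp of it, each of the 7 members had a conservative peak, against 41.5% of protein-coding genes. That count rests on 4 peaks, which neighbouring members share, and the distance is the one used to collect them.

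The members fell into the same order at the top in each list when each was given its strongest ranked summit within 500 bp of a TSS. Hsp27 had 1072 in the replicate comparison, 700 in replicate 1 and 370 in replicate 2. Hsp26 had 381, 245 and 137. Both were above every other member in each list, and in the comparison they were at percentiles 99.4 and 96.1 of the 13945 protein-coding genes. Hsp22, Hsp67Bb and Hsp67Bc shared 1 peak, with 50.2 in the comparison, 17.5 in replicate 1 and 44.4 in replicate 2. Replicate 1 placed that shared peak at percentile 52.0 of coding genes and replicate 2 at 85.5. Coding genes without a ranked summit count as the lowest in these percentiles. Among those with a summit, the shared peak was below the lower quartile of 17.7 in replicate 1. In replicate 2 it was above their upper quartile of 41.5. Hsp23 had 33.4 in the comparison and 22.5 in replicate 1, and no peak of replicate 2 was listed there. Hsp67Ba had 21.1, 12 and 13.1, the lowest of the members in the comparison and in replicate 1. The order of these 5 weaker members is not settled at this distance, since Hsp23 was above the shared peak in replicate 1 and without a peak in replicate 2. The place of Hsp22 depends on the 500 bp limit, which its conservative peak missed with a summit 522 bp from the inner TSS. That peak had 193 in the comparison, 137 in replicate 1 and 56.9 in replicate 2, above Hsp23 and the shared peak in each list. Over all protein-coding genes 67.3% had a ranked summit this close, with a median signal of 47.0 and quartiles of 26.6 and 100.8.

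**Figure D3:**
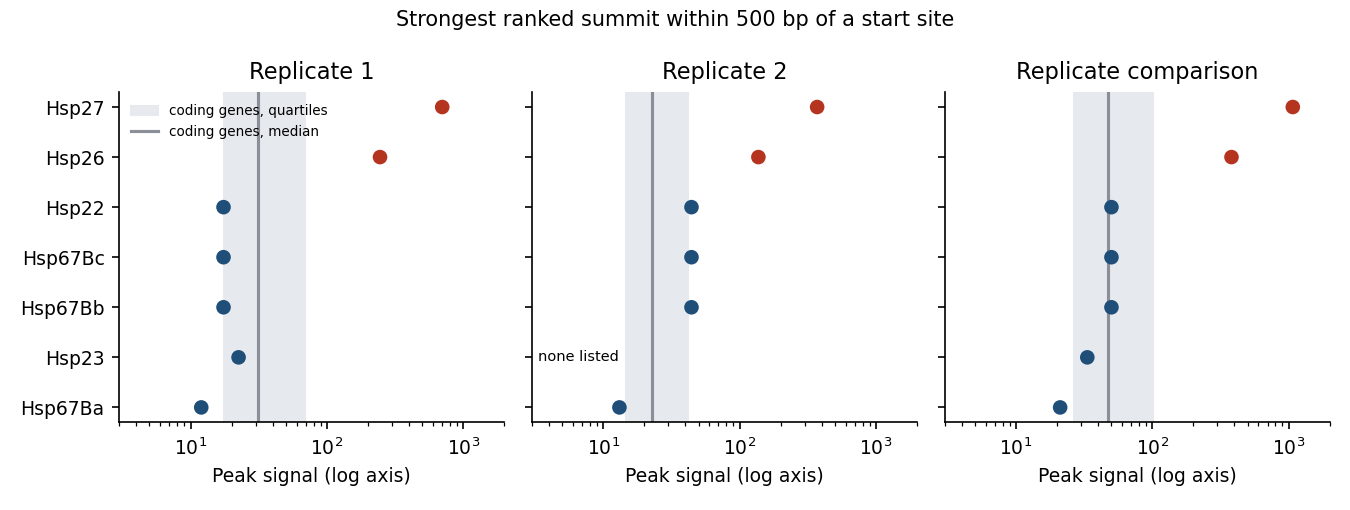
Signal of the strongest ranked summit within 500 bp of a TSS of each member (log axes), in the ranked lists of replicate 1, replicate 2 and the comparison of both, with the median (line) and quartiles (band) of the protein-coding genes that have one. Members with a conservative summit within 500 bp are red, and Hsp27 at 1072 and Hsp26 at 381 lie to the right of the band in the comparison as in both replicates. The conservative peak of Hsp22 lies beyond this distance and is not drawn.

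Each replicate's own list held the 2 strong promoter peaks at a similar place. The Hsp27 peak ranked 87 in the thresholded list of replicate 1 and 93 in that of replicate 2, and the replicates' summits lay 8 and 3 bp from the summit of the comparison. The Hsp26 peak ranked 781 and 693, with summits 2 and 14 bp away. Hsp22's peak ranked 1907 in replicate 1 with a signal of 137, and 2805 in replicate 2 with 56.9. The Fdx1 peak had a signal of 97.7 and rank 2983 in replicate 1, and in replicate 2 it had 34.1 with a global IDR of 0.0201 and was not in the thresholded list. So 3 of the 4 peaks overlapped a thresholded peak of both replicates, whereas 51.3% of all conservative peaks did. The list of replicate 2 was the shorter, with 4401 thresholded peaks against 7520.

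The ratio of replicate 1 to replicate 2 signal was closer to that of most peaks at Hsp27 and Hsp26 than at Hsp22 and Fdx1. It was 1.89 at Hsp27 and 1.78 at Hsp26, near the median of 1.76 over the 7476 conservative peaks with a value in both ranked lists. At Hsp22 it was 2.41 and at Fdx1 2.87, which were percentiles 86.0 and 94.8 of that ratio. The ranked peak upstream of the TSS shared by Hsp22 and Hsp67Bb went the other way, with a ratio of 0.393. A ratio of 1 has no meaning here because each list has its own scale, and only the distance from the median can be read.

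**Figure D4:**
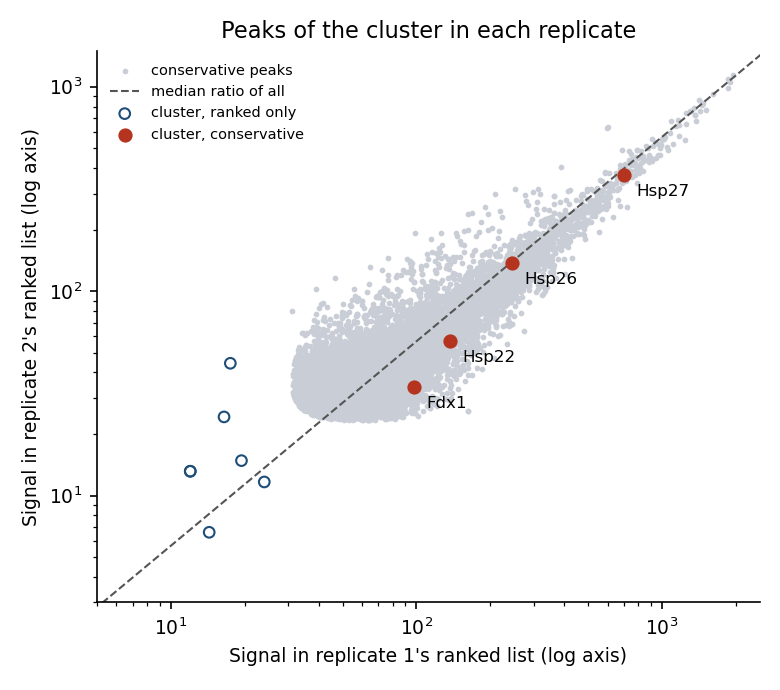
Signal of each conservative peak in the ranked list of replicate 2 (vertical axis) against that of replicate 1 (horizontal axis; grey points, both axes log), with the conservative peaks of the cluster in red, its other ranked peaks with a value in both lists as open circles, and the median ratio of replicate 1 to replicate 2, 1.76, as a dashed line. Hsp27 and Hsp26 lie close to the line, Hsp22 and Fdx1 below it.

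Most peaks that were not conservative lay in gene bodies, and their signals stayed at or below 50.2. The ranked peak upstream of Hsp22 lay inside Hsp67Bb, whereas the one upstream of Hsp23 was intergenic. In Hsp67Bc 2 such summits lay in coding sequence, with signals of 35.4 and 20.1, and in Hsp27 1 did, with 18.5. At Hsp67Ba, 4 ranked summits lay in the gene with signals of 7.58 to 33.7, where the antisense gene asRNA:CR43481 overlaps it. The highest signal among the peaks that were not conservative, apart from that upstream of Hsp22, was 38.3, in asRNA:CR43481 outside Hsp67Ba. These summits were not all independent, since 2 at Hsp67Ba matched 1 peak in each replicate, 2 at Hsp23 matched 1 peak of replicate 1, and so did 2 at Hsp27.

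The 2 strong peaks were narrower than most. The Hsp27 peak was 308 bp wide and the Hsp26 peak 220 bp, while the Hsp22 and Fdx1 peaks had the width of 364 bp that 71.5% of conservative peaks share. Peaks narrower than that made up 28.0% of the list, and their median rank by signal was 1096 of 7534. Peaks of at most 220 bp made up 17.1%. In replicate 2 the Hsp26 peak was 117 bp wide.

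All 4 summits lay in AT-rich sequence. The sequence within 50 bp of the Hsp27 summit had a GC content of 32.7%, close to the median of 31.7% over the conservative list. The Hsp26 summit had 24.8%, Hsp22 23.8% and Fdx1 19.8%, the last at percentile 4.53 of the list. Sequence 550 bp to either side of conservative summits had a median GC content of 42.6%, and the 6 arms had 42.2%. The left and right flanks of Hsp27 had 25.7% and 62.4%, so its left flank was poorer in GC than its summit. At Hsp26, Hsp22 and Fdx1 both flanks were richer in GC than the summit. The longest run of A and T alone was 17 bases at Hsp27, 10 at Hsp26, 32 at Hsp22 and 19 at Fdx1, against a median of 10 over the list. The Hsp22 run was at percentile 99.5. The Hsp22 run lay from 4 to 35 bp past its summit and is not printed because it is in annotated UTR. The runs at Hsp27 and Fdx1, which lie outside annotated UTRs and coding sequence, are shown as examples, from 13 bp before to 3 bp past the Hsp27 summit and from 22 to 40 bp past the Fdx1 summit in the direction of rising coordinates. The first is the plus strand of chr3L:9383892-9383908 and the second the minus strand of chr3L:9371143-9371161, both in dm6, and every base is in capitals because the whole run is A or T.
Hsp27 run: TAAATATTATTATATTT
Fdx1 run: TATATATATTATTTTTAAA
At Hsp26 2 runs shared the longest length.

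The bZIP motifs searched, as exact matches only, were absent within 50 bp of the 4 summits and present within 250 bp of Hsp27 and Hsp26. These were TTGCATCA (the C/EBP-ATF composite), TTGCGCAA, TTGCACAA, the shorter C/EBP-type TTGCNNCA, which also matches the first of them, TGANTCA and TGACGTCA, each on both strands. Within 50 bp of the summit 0 of 4 had a match, and 7.61% of all conservative summits had one. Hsp26 had a pair of heat shock units, GAANNTTC, from 3 to 10 bp past its summit towards higher coordinates, and 5.53% of all summits had such a pair or its counterpart TTCNNGAA. GAGAG was within that distance at 0 of the 4 and at 10.2% of all summits. Within 250 bp of the summit, GAGAG was at Hsp27, Hsp26 and Hsp22, as it was at 51.9% of all summits, and a pair of heat shock units at Hsp27 and Hsp26 (22.3%). A bZIP motif was within that distance at 2 of the 4 and at 38.2% of all summits. Both matched TTGCNNCA, 192 to 199 bp past the Hsp27 summit and 182 to 189 bp past the Hsp26 summit towards higher coordinates, and Hsp26 also had TTGCGCAA on the other side of its summit, at 9377320 to 9377327. Inside that longer window the pair at Hsp27 was 173 to 180 bp from the summit on the side away from the gene, while Hsp26 had 5 pairs on both sides of its summit. Matches are letters only and do not show which factor sits there.

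**Figure D5:**
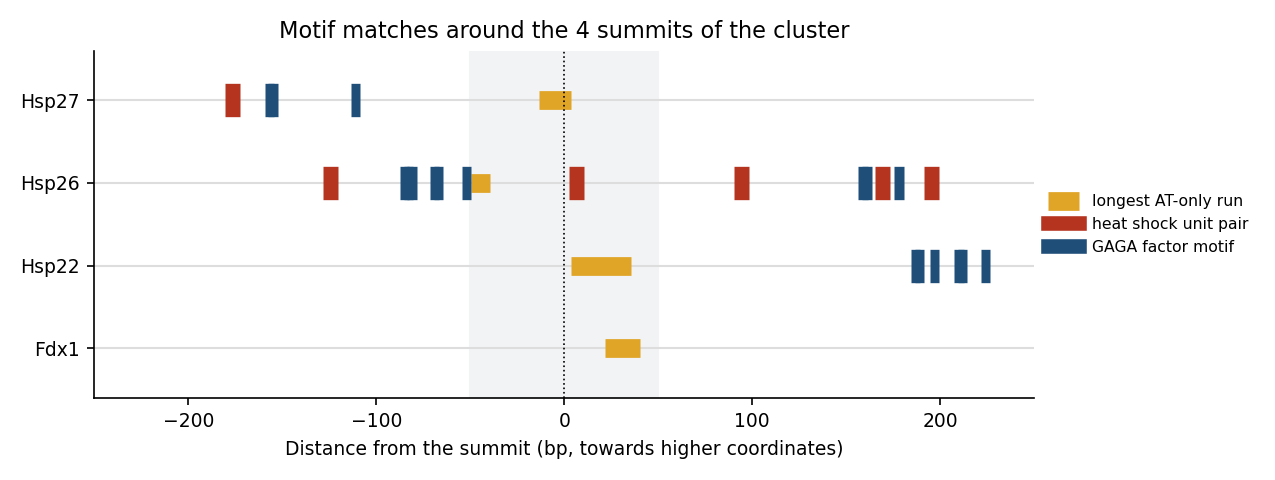
Positions of matches to pairs of heat shock units (red) and GAGAG (blue), and of the longest run of A and T alone (yellow, 1 of 2 equal runs at Hsp26), against the distance from each conservative summit of the cluster in bp, with 50 bp to either side shaded. The drawn runs at Hsp27, Hsp22 and Fdx1 reach to within 22 bp of the summit. Only Hsp26 has a pair of heat shock units inside the shaded stretch, and its equal run that is not drawn lies directly beside that pair.

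Heat shock units, GA repeats and TATA boxes were found upstream of members with and without a strong peak. In the 500 bp upstream of annotated TSSs GAANNTTC occurred at 6 members (all but Hsp67Ba), against 14.3% of 19253 protein-coding TSSs. Members can have more than 1 TSS, and Hsp22, Hsp67Bb and Hsp67Bc share part of this sequence. Runs of 3 alternating units with at most 1 mismatch in their 9 fixed bases occurred at Hsp22, Hsp23, Hsp26 and Hsp27, against 13.6%. The exact 3-unit run was at Hsp23 alone among the members, 405 to 393 bp upstream of its TSS, and at 0.738% of coding TSSs. GAGAG occurred at the same 6 members as GAANNTTC (44.5% of coding TSSs), and TATAAA on the gene's strand started between 35 and 20 bp upstream of a TSS at 5 members (6.22%). The shorter C/EBP-type TTGCNNCA was at 5 members (24.3%), among them Hsp23 but not Hsp27. The composite TTGCATCA was at Hsp22 alone among the members, 107 to 100 bp upstream of its inner TSS, where 1.54% of coding TSSs had it. No conservative summit lay at that composite, since the Hsp22 peak ended at 9373656 and the motif starts at 9373890. The 500 bp upstream of the Hsp27 TSS, where the strongest peak of the cluster lies, held no exact match to the bZIP motifs searched. Most coding TSSs also lacked TTGCNNCA, given its share of 24.3%. No mismatch was allowed for the bZIP motifs, unlike for the runs of 3 units. The printed Hsp27 sequence reads ttgcatta just past the summit, which differs from TTGCATCA at 1 base. How often other summits hold such a near match was not counted. Within 50 bp of the Hsp27 summit there was no pair of heat shock units, and 5.53% of all conservative summits had one.

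Among conservative peaks with a summit within 500 bp of a protein-coding TSS, the Hsp27 peak ranked 59 of 2692 by signal, Hsp26 372 and Fdx1 1300. The promoter peaks closest in rank to Hsp27 were those of Shc, bves and CG5098 above it, with signals of 1115, 1107 and 1098, and of CG17726, TRAM and CG11857 below it, with 1055, 1050 and 1024. Their summits lay 71 to 215 bp upstream of the TSS, so the position of the Hsp27 summit was within their range.

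Outside the cluster, heat shock genes of the large chaperone classes had peaks that were weaker than that of Hsp27. Of 6 other small heat shock protein genes, 0 had a conservative summit at the 500 bp promoter distance. They include CG4461, which lies inside the cluster and had no ranked summit that close. Of 24 annotated genes for heat shock factor, large chaperones and their partners, 6 had one, beside the 20.0% of all genes. The strongest were the mitochondrial Hsp70 gene Hsc70-5 with a signal of 305, the Hsp90 gene Hsp83 with 173, the constitutive Hsp70 gene Hsc70-4 with 165 and Hsc70-3, the Hsp70 of the endoplasmic reticulum, with 154. Hsc70-5 was thus below both Hsp27 and Hsp26, and the other 3 were also below the Hsp22 peak. The Hsc70-3 summit lay exactly at the 500 bp limit, and the count of 6 genes fell to 4 without replicate 1. Hsf itself had no conservative summit there, and its strongest ranked peak had a signal of 45.6. Among the heat-inducible genes the noncoding lncRNA:Hsromega had a ranked peak of 260 and Hsp70Ba of 166, with global IDRs of 1e-05 and 7.36e-05, although the conservative list lacks both. The Hsp70 copies are nearly identical in sequence, so the assignment of reads among them is uncertain.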

How the data were processed

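Xrp1-eGFP was mapped by ChIP-seq in 2 biological replicates of 1 group of embryos. Chromatin was sonicated to fragments between 200 and 800 bp, per the labels. The authors deposited peaks in dm6 as narrowPeak tables from the IDR procedure: 2 thresholded lists of the replicate comparison, of which 1 is conservative, a thresholded list per replicate, and ranked lists. The deposited signal column is the authors' peak signal, whose scaling is not stated. The deposited score is the authors' whole-number IDR score, capped at its top value, and the deposited global IDR is a -log10 value, converted here to the IDR itself. Aligner and peak caller were not given in the sources used here.

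Genes came from Ensembl release 115 and sequence from the RefSeq dm6 genome. Hsp67Bb and Hsc70Cb were matched through RefSeq synonyms (CG4456, Hsp110), and the list gene Hop was not matched. Each summit was assigned to its nearest TSS. A replicate's value is that of its own ranked peak that overlaps by at least 1 bp and has the highest signal. Motifs were searched on both strands, as exact matches except where a mismatch is stated. No p-value was computed, since there is 1 group. Named beyond the members were the genes nearest to the cluster's peaks, the 6 promoter peaks closest in rank to Hsp27, and up to 4 genes per list with the strongest conservative summit. Hsf, lncRNA:Hsromega and Hsp70Ba were named after their values were seen. The members and lists were chosen with earlier results of these data known. Alternatives changed the list, IDR, distances, window, overlap and replicate. The procedures were tested on simulated data, in Python 3.11.15 with NumPy 2.4.6, pandas 2.3.3 and matplotlib 3.10.9.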

Additional observations from a re-analysis of the deposited data

How the results depend on the processing

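Over 48 alternatives to 11 results, 35 were labelled the same, 13 moved and 0 changed direction. The tolerance behind these labels differed between results. The ranked peaks of the cluster went from 21 to 30 within 5000 bp and were labelled the same. The percentile of the Hsp27 peak went from 98.8 to 97.9 without replicate 1 and was labelled moved. The cluster's conservative peaks numbered 3 to 4 with either replicate alone, where Fdx1 was missing from replicate 2. Members with a conservative summit at a TSS rose from 2 to 5 at 1000 bp and 6 at 2000 bp, where neighbours share peaks, and stayed at 2 with either replicate alone. The Hsp27 peak was at percentile 97.9 to 98.8 with either replicate alone and at 59.2 by IDR score, at whose top value 6146 peaks are tied. The bZIP motifs stayed at 0 of 4 summits within 100 bp and over whole peaks and went to 2 within 250 bp, where 38.2% of all summits had one. Pairs of heat shock units stayed at 1 in the former and went to 2. With all 21 ranked peaks searched in place of the 4, the counts were 3 and 4. GAGAG went from 0 to 1 within 100 bp, 2 over whole peaks, 3 within 250 bp and 3 of the ranked peaks. The 250 bp distance was chosen after seeing the data. The other small heat shock protein genes went from 0 to 2 at 2000 bp. For heat shock factor, large chaperones and partners the count went from 6 to 8 at 2000 bp. It was 7 in the second thresholded list, 4 without replicate 1 and 6 without replicate 2. No paired analysis was possible because the study has no second group. Depth is unknown, so an unlisted peak, as at Hsp23 in replicate 2, is not shown to be absent.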
